A study of Drosophila melanogaster and Drosophila virilis with 60 samples.

Results

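Among 14127 genes of *D. melanogaster* followed through metamorphosis, 100 stood out by high expression at the pupal stages P2 and P3, and these genes are described here. They were selected on the expression values themselves. The replicates of each of 10 stages were averaged, and a gene was scored by the smaller of its P2 and P3 means minus the highest mean among embryo, larvae, P4, P5, mid pupae, late pupae and adults. P1 did not enter the score, and the 100 highest scores were taken. Poly(A) RNA of whole wild-type Oregon-R animals, reared at one constant temperature and untreated, was sequenced in 3 biological replicates per stage, each a pool of animals. Embryos were aged 10 h, mid pupae 24 h, late pupae 48 h and adults 5 d. The adults were all males and the sex of the other animals is labelled unknown, so that a difference from adults is a difference from males. The larval replicates were 1 library of the 1st, 1 of the 2nd and 1 of the 3rd instar, which share no age. Total counts lay between 7350353 and 13434700 per library with a median of 9126311.5. Because whole animals were used, fewer cells of a type and less RNA per cell cannot be told apart.

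At pupariation the larva stops moving, its cuticle is detached from the epidermis, hardened and tanned, and becomes the puparium. P1 is the white puparium, P2 the brown puparium, P3 the prepupa with a gas bubble in the abdomen and P4 the buoyant prepupa. Pulses of the steroid hormone ecdysone time this sequence, acting through nuclear receptors and a hierarchy of early and late genes. In these stages the epidermis and the imaginal discs, the precursors of adult appendages, secrete cuticle, the salivary glands and the midgut are remodelled or destroyed, and the fat body takes proteins back from the blood.

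The label of a pulse at P2 and P3 was borne out only in part, because P1 had not been looked at. Of the 100 genes, 39 had their highest mean of all 10 stages at P1, 35 at P2 and 26 at P3. Over all genes whose values vary, 5.77% had their maximum at P1, 2.25% at P2 and 3.77% at P3. The rule allows a member its maximum only at P1, P2 or P3, so nothing is read from the distance to these shares. P1 lay between P2 and P3 in 17 genes. In 26 it was below both but above every other stage, and in the remaining 18 it was not above every other stage. Most of the genes are therefore better described as high from P1 to P3, with a smaller group that was low at P1. All values here are either variance-stabilized log2 values, on which a count of 0 has the value 4.09, or normalised counts recovered from them, which are not corrected for gene length and are compared only within a gene.

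**Figure D1:**
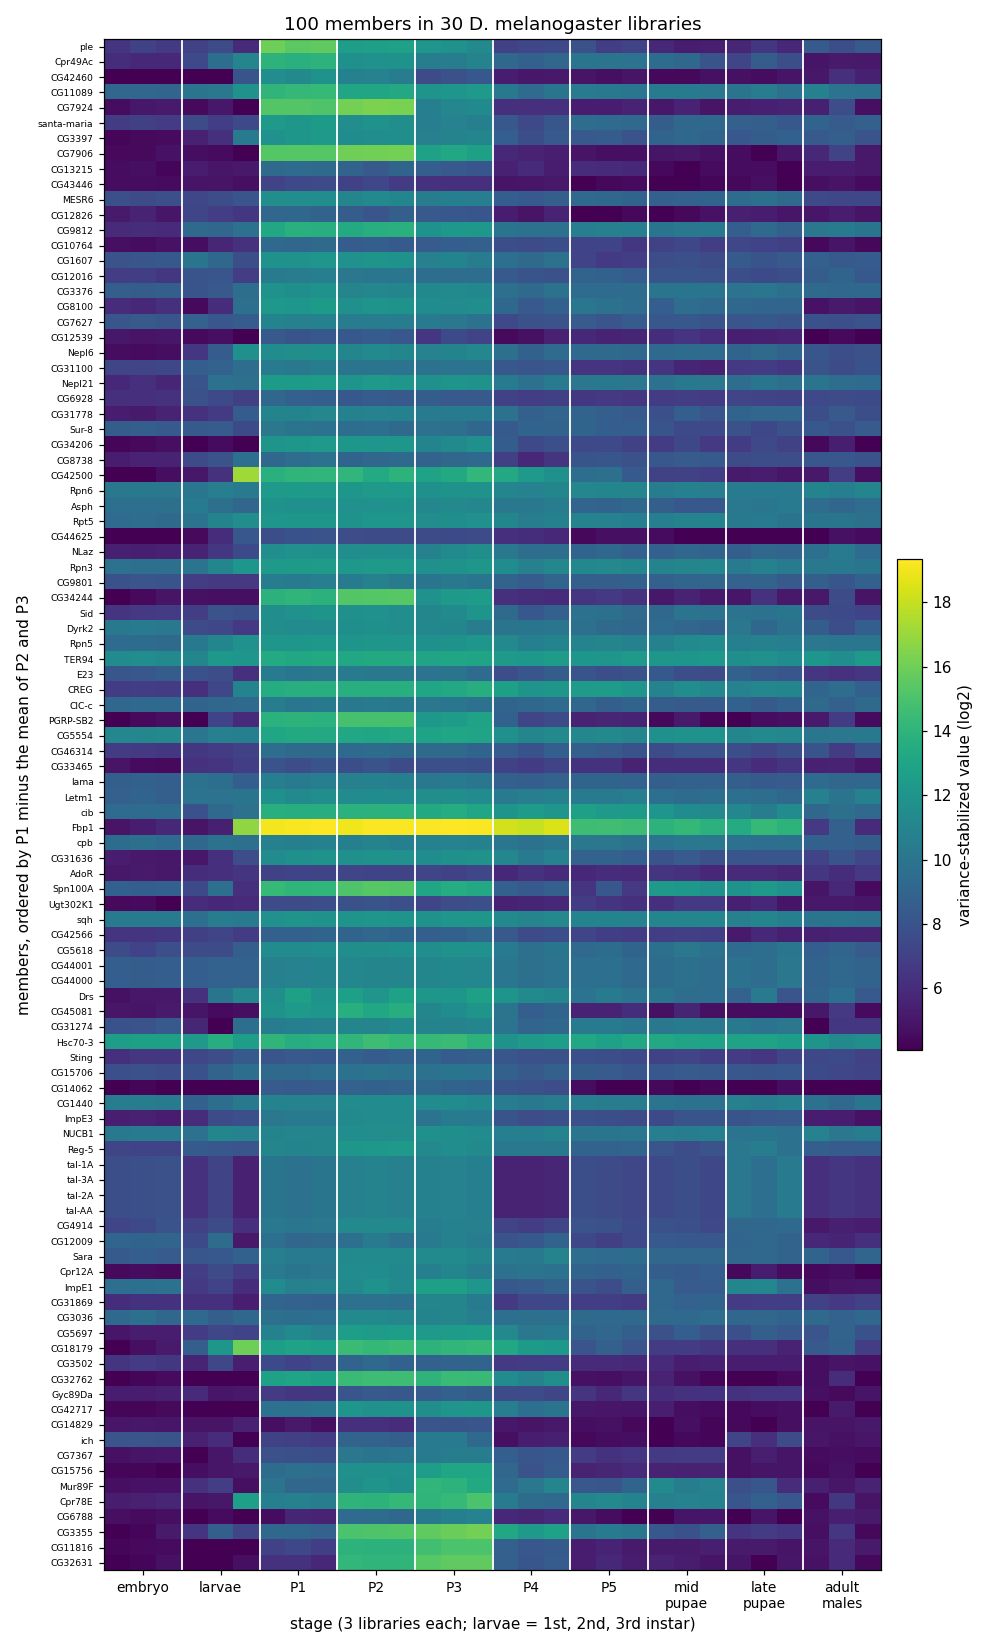
Variance-stabilized values (log2, colour) of the 100 genes (rows) in the 30 libraries (columns, 3 per stage), with genes ordered by P1 minus the mean of P2 and P3; colours compare libraries within a row, not genes. Rows at the top are brightest at P1, rows at the bottom are dark at P1 and bright at P2 and P3, and some rows have a bright 3rd instar column beside dark 1st and 2nd instar columns.

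The score ranged from 6.88 in CG7906 to 0.672 in cpb, with a median of 1.08. It was above 1 in 56 genes, above 2 in 18 and above 4 in 6, so that the threshold cuts a continuous tail. The last 3 genes inside were CG31274 with a score of 0.677, the kinase gene Dyrk2 with 0.672 and cpb, a subunit of actin capping protein, with 0.672. The first 3 outside were Cpr78Ca with 0.658, CG33225 with 0.657 and CG15445 with 0.649. The stage that came closest to P2 and P3 was P4 in 43 genes, mid pupae in 14, P5 in 13, late pupae in 12, larvae in 9, adults in 6 and embryo in 3. All 6 libraries of P2 and P3 were above all 21 libraries of the other 7 stages in 90 of the 100 genes, against a background of 1.53% of all genes. The rule used these values, and nothing is read from that count.

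The 100 names stand for 96 distinct profiles. The 4 small reading frames of tarsal-less, tal-1A, tal-2A, tal-3A and tal-AA, lie on 1 transcript and have identical values in every library, as have CG44000 and CG44001. Each name is counted in the numbers out of 100. Another listed gene overlaps 36 of the 100, in 14 on the same strand, where the reads of the neighbours may have been split between them. CG45081, ImpE3 and Nepl6 are such genes, and their counts are uncertain to that extent.

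The genes took 0.540% ± 0.374 of all counts in larvae (SD, n = 3) and 11.7% ± 0.133 at P1. The share was 14.6% ± 0.578 at P2 and 11.98% ± 0.729 at P3, and then 4.26% ± 0.547 at P4 and 1.25% ± 0.0651 at P5. In adult males it was 0.363% ± 0.0578. A single gene of the fat body, Fbp1, made up much of this. Without it the remaining 99 genes took 5.14% at P1, 7.75% at P2, 5.13% at P3 and 0.991% at P4.

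**Figure D2:**
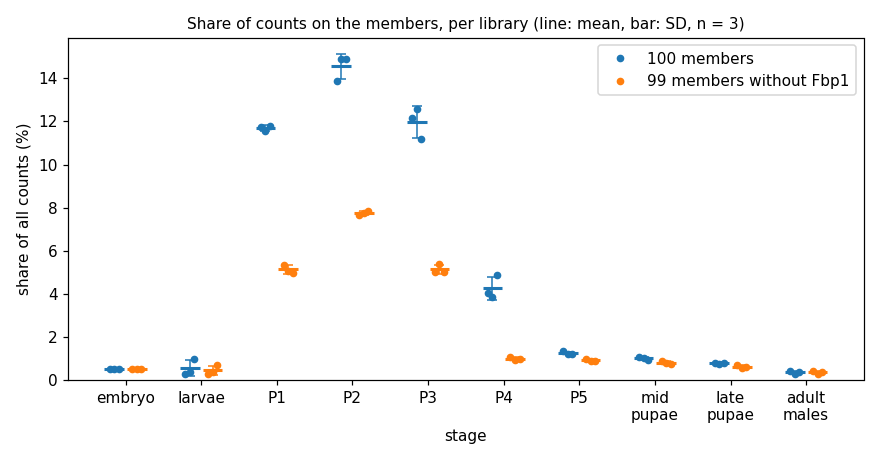
Share of all counts (%) that fell on the 100 genes (blue) and on the 99 genes without Fbp1 (orange) in each library by stage; points are libraries, horizontal lines means and bars SD (n = 3). Both shares were highest at P2, with means of 14.6% and 7.75%, and the blue share was still 4.26% at P4 where the orange one was 0.991%.

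Some of the genes lie close to each other on the chromosomes. Of the 100, 28 lay in 11 groups whose members are within 50 kb of the next, and 4 groups had 3 or more members. The 28 include the 4 tal frames, which share a transcript, and CG44000 and CG44001, which share their position. How many other genes have such neighbours was not counted, so nothing is read from these numbers. Positions are from the BDGP6.54 annotation. On the X chromosome, CG15756, Cpr12A, CG11816 and CG32631 lie between 13534400 and 13557866 and are the only listed genes in that interval. On 3L, CG7924, CG34244 and CG7906 lie between 14233469 and 14238272, an interval of 4.80 kb that holds no other listed gene. A looser group on 3L between 3291459 and 3369942 contains CG12009, CG12016 and Drs among 18 listed genes. The 4 tal reading frames lie on 3R between 13813109 and 13814648, and the pair Fbp1 and CG8100 lies on 3L between 14083615 and 14098053.

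CG7906 (FBgn0036417, 3 exons, 356 codons) had the highest score of all genes. Its normalised counts were 40560, 40397 and 40820 at P1, 66962, 68727 and 70901 at P2 and 7272, 9299 and 6928 at P3. In the 21 libraries of the other 7 stages they ranged from 0 to 116 with a median of 4.93. The highest of these was in adult males replicate 2, and at P4 they were already at 25.8, 19 and 14.4. P2 and P4 thus differed by orders of magnitude.

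The other genes of the trio on 3L followed the same course. CG34244 (112 codons) had 15168, 17292 and 15110 normalised counts at P1, 38470, 40451 and 41851 at P2 and 3515, 5006 and 5742 at P3, and the other 21 libraries ranged from 0 to 165 with a median of 9.4. CG7924 (321 codons) had 38328, 39497 and 35838 at P1, 71933, 80592 and 77221 at P2 and 1602, 2261 and 2620 at P3, and the other 21 libraries ranged from 0 to 172 with a median of 12.5. In all 3 genes the P1 libraries were above the P3 libraries and below the P2 libraries without overlap. In CG7924 P3 was 35.4-fold lower than P2 on the scale of mean normalised counts, the largest decrease of any of the 100 genes. No function is given here for these genes.

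The X chromosome group behaved differently. CG32631 (312 codons) had only 46.2, 48.2 and 28.6 normalised counts at P1, then 18141, 16853 and 16705 at P2 and 42491, 48988 and 49735 at P3, and 397, 254 and 338 at P4. CG11816 (362 codons) had 103, 134 and 91.1 at P1, 15465, 15077 and 15245 at P2, 26763, 32581 and 33680 at P3 and 400, 266 and 310 at P4. In both genes P2 and P3 did not overlap and P3 was the higher, and P1 lay below P4. CG15756 (298 codons) had more transcript at P1, with 665, 797 and 719, followed by 3446, 3334 and 3424 at P2 and 6387, 8264 and 8318 at P3. The member of the group that codes for a cuticle protein of the Rebers and Riddiford family, Cpr12A, had a flatter course with 1218, 999 and 1091 at P1, 2723, 2842 and 2341 at P2 and 1595, 2144 and 1454 at P3. Cpr12A peaked at P2 and remained at 350, 306 and 364 in mid pupae. Its 3 neighbours were between 6.51 and 20.97 there.

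**Figure D3:**
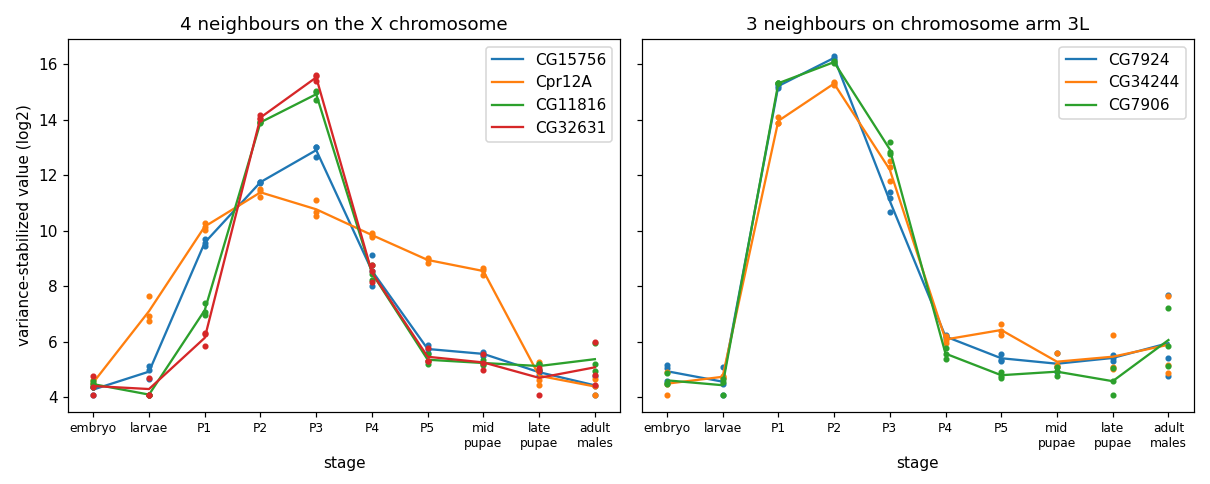
Variance-stabilized values (log2) of the 4 neighbouring genes on the X chromosome (left) and the 3 on 3L (right) by stage; points are libraries and lines join the stage means (n = 3). The 3L trio is high from P1 and lower at P3 than at P2, whereas CG32631 and CG11816 are low at P1 and highest at P3, with CG32631 at a mean of 6.1 at P1 and 15.5 at P3.

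P3 and P2 were compared directly, since the rule uses the smaller of the 2 stages and does not fix the sign of their difference. The rule is not neutral to that sign. It left out genes that were higher at P4 than at P2 or P3, but not genes that were higher at P1. How far this shifted the counts in each direction was not tested, and the share over all genes carries no such limit. In a linear model of all 30 libraries (limma, Benjamini-Hochberg adjusted over 14048 genes), 16 of the 100 genes were lower at P3 than at P2 and 7 were higher. Of all genes tested, 2.36% were lower and 3.92% higher. The median difference of the 100 was -0.18 on the log2 scale, with 69 genes below 0 and 31 above, and 62 lay within 0.5 of 0. The model shares 1 estimate of spread per gene over all stages, including the 3 unlike instars. When each instar was made a group of its own the sum of calls was 36 rather than 23, and with the 6 libraries of P2 and P3 alone it was 41. It was 9 on the scale log2(normalised count + 1). Leaving out a replicate gave 13 calls without replicate 1, 15 without replicate 2 and 17 without replicate 3.

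Of the increases from P2 to P3 that passed the test, the 5 largest were in Mur89F, CG14829, CG32631, CG6788 and CG15756. Mur89F, which codes for a mucin-related protein, had 3156, 3913 and 3302 normalised counts at P2 and 17720, 15748 and 10315 at P3 (log2 difference 2.04, SE 0.49, limma adjusted p = 0.00789). CG14829 had 43.2, 39.8 and 35.8 at P2 and 245, 232 and 251 at P3 (log2 difference 1.99, SE 0.18, limma adjusted p = 1.46e-08). In neither gene did P2 and P3 overlap, and CG14829 was close to 0 at P1 with 3.56, 8.86 and 3.07. CG6788 went from 650, 681 and 546 to 1180, 1591 and 1778 (log2 difference 1.22, SE 0.29, limma adjusted p = 0.00789). CG32631 rose by a log2 difference of 1.45 (SE 0.31, limma adjusted p = 0.00261) and CG15756 by 1.15 (SE 0.21, limma adjusted p = 4.61e-04). The other increases were in CG31869 (1.04) and CG11816 (1.01). The call was lost in Mur89F without replicate 1 (1.82, limma adjusted p = 0.249) and without replicate 2 (2.05, 0.155), in CG32631 without replicate 1 (1.55, 0.0797) and in CG6788 without replicate 2 (1.24, 0.125) and without replicate 3 (1.01, 0.238). On the scale log2(normalised count + 1) it was lost in Mur89F (2.05, limma adjusted p = 0.138), CG32631 (1.45, 0.558) and CG6788 (1.26, 0.736).

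Of the decreases that passed, the 5 largest were in CG7924 (log2 difference -5.15, SE 0.42, limma adjusted p = 2.01e-09), CG7906 (log2 difference -3.14, SE 0.32, limma adjusted p = 6.70e-08), CG34244 (log2 difference -3.10, SE 0.43, limma adjusted p = 1.51e-05), CG42460 and PGRP-SB2. CG42460 fell from 1713, 1782 and 1403 normalised counts at P2 to 165, 198 and 273 at P3 (log2 difference -2.78, SE 0.58, limma adjusted p = 0.00221). PGRP-SB2, a secreted peptidoglycan recognition protein of the innate immune system, fell from 30530, 29810 and 30619 to 4636, 5851 and 7602 (log2 difference -2.35, SE 0.53, limma adjusted p = 0.00491). The remaining 11 decreases lay between -1.98 in CG45081 and -0.55 in MESR6. Among them were the serpin gene Spn100A (-1.93), ImpE3 (-1.17), the scavenger receptor gene santa-maria (-0.97), Reg-5 (-0.82) and Asph (-0.65), an aspartyl hydroxylase gene. The call was lost in CG42460 without replicate 1 (-2.60, limma adjusted p = 0.123) and without replicate 2 (-2.69, 0.126) and in PGRP-SB2 without replicate 3 (-2.53, 0.0785). On the scale log2(normalised count + 1) it was lost in both (CG42460 -2.96, limma adjusted p = 0.187, and PGRP-SB2 -2.36, 0.414). The X group accounted for 3 of the 7 increases and the 3L trio for 3 of the 16 decreases.

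**Figure D4:**
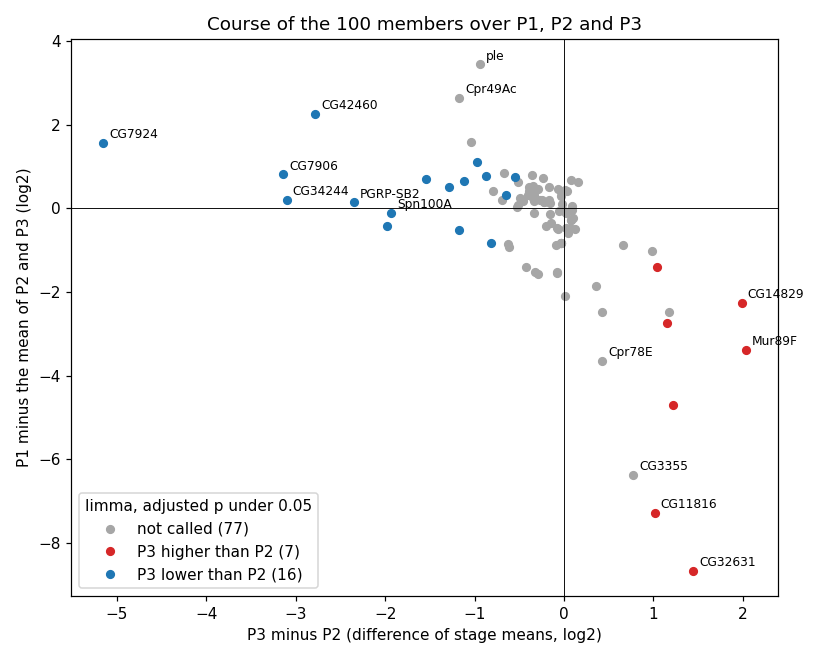
P3 minus P2 (horizontal) against P1 minus the mean of P2 and P3 (vertical), as differences of stage means of variance-stabilized log2 values, for the 100 genes, coloured by the limma call of P3 against P2. The 7 genes higher at P3 all lie below 0 on the vertical axis and 12 of the 16 lower ones lie above it, with CG7924 at -5.15 on the horizontal axis.

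The course over P1 and the course from P2 to P3 went together. P1 minus the mean of P2 and P3 had a Spearman rho of -0.62 and a Pearson r of -0.57 with P3 minus P2 over the 100 genes. The points come from the same 9 libraries, and over all genes that vary the rho was -0.56, so that the relation is close to that of the whole transcriptome. All 7 genes that rose from P2 to P3 had their maximum at P3. Of the 16 that fell, 5 had their maximum at P1 and 11 at P2. The rule allows a maximum only at P1, P2 or P3. A gene that rose cannot have it at P2 and a gene that fell cannot have it at P3, so nothing is read from these counts.

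P1 itself was compared with larvae. Of the 100 genes, 96 were higher at P1 than in larvae (limma), against 34.9% of all genes tested, while 29.9% of all genes were lower. The median difference was 3.0 on the log2 scale in the 100 genes and 0.05 in all genes. The larval mean is bounded from above by the rule, so that this count is in part a consequence of the choice. It is given as a description, as are the differences. The 4 genes that did not pass in either direction were CG14829 (log2 difference -0.24, SE 0.18, limma adjusted p = 0.268), NUCB1 (log2 difference 0.42, SE 0.21, limma adjusted p = 0.0789), CG18179 (log2 difference 0.44, SE 0.93, limma adjusted p = 0.711) and Sting (log2 difference 0.46, SE 0.23, limma adjusted p = 0.0781). Against the 3rd instar alone 86 of the 100 genes were higher at P1 and 4 were lower, which were Cpr78E (-2.09), CG18179 (-3.26), CG14829 (-0.66) and CG42500 (-3.16). The largest differences from the mean of the instars were 10.9 in CG7906, 10.7 in CG7924, 10.2 in Fbp1, 9.2 in CG34244 and 8.8 in ple.

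Relative to the smaller of P2 and P3, P1 was highest in CG7924, ple, CG42460, Cpr49Ac and CG7906, with differences of 4.14, 3.92, 3.65, 3.23 and 2.38 on the log2 scale. It was lowest in CG32631, CG11816, CG3355, CG6788 and Cpr78E, with differences of -7.94, -6.77, -5.99, -4.08 and -3.43. Of the 5 at the upper end, CG7924 and CG7906 had their maximum at P2 and the other 3 at P1.

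The tanning gene ple and the cuticle protein gene Cpr49Ac were at the upper end of this order, and the cuticle protein gene Cpr78E at the lower. ple codes for tyrosine hydroxylase, which makes DOPA for melanin and for the quinones that harden cuticle. It had 63987, 45858 and 50111 normalised counts at P1, 6008, 6932 and 7169 at P2, 4395, 3693 and 2563 at P3 and 104, 128 and 144 at P4. P1 was 7.95-fold above P2 in the means, and the 21 libraries of the other stages ranged from 13.1 to 311 with a median of 99.3. So ple was at its height in the white puparium and much lower in the brown one, although still above the 7 other stages there.

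Cpr49Ac, which like Cpr12A and Cpr78E codes for a cuticle protein, showed the same order as ple. It had 15901, 13582 and 15577 normalised counts at P1, 3355, 3531 and 3879 at P2 and 1454, 1401 and 1900 at P3, but 2014 in the 3rd instar, which was above all P3 libraries. Cpr78E ran the other way, with 1576, 1652 and 1396 at P1, 16285, 15381 and 19321 at P2 and 17377, 20400 and 33302 at P3. At P4 it was down to 1216, 691 and 598 and at P5 it was back at 2027, 2406 and 1923, and the 3rd instar held 6675. Members make up 100 of all 14127 genes, and Cpr12A, Cpr49Ac and Cpr78E were the only 3 of 137 listed cuticle protein genes among them. Of the 136 of these that could be tested, 12 were higher and 4 lower at P3 than at P2, and 11 were higher and 96 lower at P1 than in larvae. All 3 members were among the 11 that were higher at P1, where the rule bounds their larval mean from above. Against the single library of the 3rd instar the P1 difference of Cpr78E was -2.09 on the log2 scale. None of 29 genes of chitin synthesis and turnover and none of 12 zona pellucida domain genes, which code for proteins of the apical matrix, was among the 100. With 100 members among 14127 genes, nothing is read from the absence of members in such short lists, here or below.

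The list of ecdysone cascade genes held 1 member, where 100 of all 14127 genes are members. A response of the other members to ecdysone was not looked at. E23, an ecdysone-induced ABC transporter gene, was the only one of 21 genes of the ecdysone cascade in the set, with 1210, 1060 and 1105 normalised counts at P1, 1221, 1148 and 1130 at P2 and 927, 974 and 652 at P3. The other 21 libraries ranged from 44.8 to 425 with a median of 206, so that E23 was never silent. Of the 21 cascade genes, 16 were higher and 1 lower at P1 than in larvae, and 1 was higher and 4 lower at P3 than at P2. The nuclear receptor gene ftz-f1, known for its expression between the ecdysone pulses, rose from P2 to P3 by 1.70 (SE 0.29, limma adjusted p = 2.00e-04). Its known repressor Blimp-1 changed by -2.94 (SE 0.41, limma adjusted p = 1.15e-05), Hr3 by -1.39 (SE 0.38, limma adjusted p = 0.0266), Kr-h1 by -1.19 (SE 0.28, limma adjusted p = 0.00762) and Eip78C by -1.13 (SE 0.32, limma adjusted p = 0.0319).

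ImpE1 and ImpE3, 2 of 5 listed genes first described as ecdysone-inducible in imaginal discs, were members with different courses. ImpE3 had 1110, 1252 and 1348 normalised counts at P1, 2530, 2738 and 2785 at P2 and 926, 1294 and 1333 at P3, with P2 above both neighbours without overlap (log2 difference -1.17, SE 0.29, limma adjusted p = 0.00944 for P3 minus P2). ImpE1 had 2722, 1686 and 1813 at P1, 2575, 3762 and 2579 at P2 and 6787, 6744 and 4285 at P3, which did not pass the test (log2 difference 0.98, SE 0.34, limma adjusted p = 0.104). It was high again in late pupae with 2177, 2329 and 825. Both were higher at P1 than in larvae. The non-member ImpL1 differed by 3.88 (SE 0.48, limma adjusted p = 2.49e-06) between P3 and P2.

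Of the genes of transcription and signalling, ich and the tal frames were present again in late pupae. ich, a zinc finger factor of tracheal tubes, had 107, 94.5 and 77.8 normalised counts at P1, 456, 442 and 381 at P2 and 1362, 1245 and 593 at P3, then 3.52, 12.7 and 15.5 at P4. It was at 123, 42.2 and 166 in late pupae and at 247, 243 and 229 in embryos, and P3 minus P2 did not pass (log2 difference 1.18, SE 0.37, limma adjusted p = 0.0592). The tal peptides, which switch the transcription factor encoded by ovo from repressor to activator in the epidermis, had 981, 871 and 1000 at P1, 1692, 1866 and 1641 at P2 and 1702, 1772 and 1602 at P3. They were at 21.1, 19 and 23.7 at P4 and at 1131, 788 and 1258 in late pupae. The P4 minimum between both periods had no overlap with any other pupal stage. AdoR, the adenosine receptor gene, and Gyc89Da, a guanylyl cyclase gene, had means of 7.22 ± 0.08 and 8.27 ± 0.13 at P2 and of 7.22 ± 0.11 and 8.63 ± 0.15 at P3 (variance-stabilized log2, SD, n = 3). Sara, an endosomal adaptor of TGF-beta signalling, had 11.33 ± 0.04 and 11.25 ± 0.20.

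The immune genes of the set differed from each other. PGRP-SB2 was high at P1 with 14688, 15493 and 14354 normalised counts and had 424, 122 and 163 at P4. Drs, which codes for the antifungal peptide drosomycin, had 3020, 6742 and 3824 at P1, 6599, 4133 and 7031 at P2 and 4492, 4561 and 6931 at P3, and 3918, 2510 and 2173 at P4. Its P4 libraries ran close below P3, and the 2nd and 3rd instars held 983 and 2181. Of the 6 Drs-like genes that lie near it, Drsl2 came nearest with a score of 0.537 at rank 142, and none was a member. Sting, a sensor of cyclic dinucleotides, had 420, 329 and 425 at P2 and 484, 329 and 386 at P3, against 259, 197 and 199 at P4 and 302 in the 3rd instar. Its margin over the other stages was small, with a score of 0.76. Of 9 blood cell markers none was a member, 1 was higher and 1 lower at P3 than at P2, and their summed level was 1986 to 2334 normalised counts at P2 and 2312 to 2566 at P3.

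The serine protease genes CG3355 and CG18179 and the serpin gene Spn100A had different courses. CG3355, which codes for a trypsin-like serine protease, had 578, 576 and 434 normalised counts at P1, 32882, 36189 and 37253 at P2, 49798, 61108 and 73548 at P3 and 9042, 4943 and 7194 at P4. P2 exceeded P1 by 67-fold in the means. Spn100A had 19784, 17315 and 18001 at P1, 35134, 42095 and 38516 at P2 and 8831, 11546 and 10043 at P3, then 419, 301 and 396 at P4 and 5084, 4626 and 3747 in mid pupae. It thus had a later, lower period of expression after P5, where it stood at 57.7, 272 and 67.3. CG18179, another serine protease gene, had 23056, 19684 and 22475 at P2 and 15555, 17440 and 18962 at P3, but 64525 in the 3rd instar. The set holds none of 20 listed protease genes of the gut, whose symbols carry Try or Jon. Of these 12 were lower at P3 than at P2, and their summed level ran from 34620 to 37320 normalised counts at P2 and from 4767 to 9629 at P3.

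Nepl6 and Nepl21, 2 of 19 neprilysin-like genes, which code for relatives of membrane metallopeptidases, were both highest at P1. Nepl21 had 5364, 5262 and 5826 normalised counts at P1, 4048, 4900 and 4372 at P2, 3348, 3924 and 3606 at P3 and 1263, 887 and 1301 at P4. Nepl6 had 2864, 3047 and 3286 at P1, 2144, 2515 and 2174 at P2 and 1841, 2004 and 2244 at P3, but 3344 in the 3rd instar, which was above all of these. Both settled at a lower plateau from P4 to late pupae. The other 17 genes of the family had scores below 0.

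Fbp1, the receptor through which the fat body takes up larval serum proteins, was the member with the most counts. It had 557990, 585130 and 638440 normalised counts at P1, 532650, 627810 and 613960 at P2, 606820, 658430 and 622610 at P3 and 314840, 270800 and 378480 at P4. Its P1, P2 and P3 libraries overlapped, and P4 lay below them. At P5 it stood at 25156, 25240 and 23827. In larvae it was 5.16, 15.4 and 113540 in the 1st, 2nd and 3rd instar, so that the larval mean that the rule compared with P2 and P3 averaged a nearly silent and an active state. The neighbour CG8100 had variance-stabilized means of 12.22 ± 0.15, 11.85 ± 0.11 and 11.50 ± 0.08 at P1, P2 and P3 and 8.77 ± 0.41 at P4. Fbp1 was the only member among 7 fat body genes, of which 4 were higher at P1 than in the mean of the instars. The summed level of the 7 ran from 11250 to 2346000 normalised counts in the larval libraries and from 892800 to 1034000 at P1. None of the 7 passed between P2 and P3 in limma, with 0 also at an unadjusted p under 0.05.

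Values of 4 further named genes are given by stage. santa-maria, a scavenger receptor gene of carotenoid uptake, had means of 12.30 ± 0.12, 11.68 ± 0.14 and 10.70 ± 0.12 at P1, P2 and P3, and was lower at P3 than at P2 in the test above. NLaz, a lipocalin gene, had 11.70 ± 0.12, 11.60 ± 0.08 and 11.26 ± 0.42, and came closest to these in adults with 9.81 ± 0.47. The stress-induced DNase gene Sid had 11.78 ± 0.18, 11.72 ± 0.09 and 11.45 ± 0.45 (all variance-stabilized log2, SD, n = 3). For the secreted glycoprotein gene CREG the 3 means were 13.65 ± 0.09, 13.65 ± 0.03 and 13.32 ± 0.24.

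Genes of the proteasome were among the members with scores below 1. Rpt5, Rpn3, Rpn5 and Rpn6 code for subunits of the regulatory particle of the proteasome, which unfolds ubiquitinated proteins. Rpn6 had 5190, 5241 and 5161 normalised counts at P1, 4482, 5022 and 4846 at P2, 3430, 3738 and 3646 at P3 and 2092, 1774 and 2133 at P4, and the 21 libraries of the other 7 stages ranged from 1047 to 2210 with a median of 1530. Rpn3 had 5020, 5286 and 5489 at P1, 4780, 5175 and 4986 at P2 and 3437, 3877 and 4536 at P3, with 4282 in the 3rd instar. The differences are thus smaller than in the genes above and rest on high counts. The family was looked at as a whole after these 4 had been seen. Of 23 genes named Rpn or Rpt, 18 had a score above 0 and stood within rank 500, with a median rank of 136 over the 23, against 674 of all 14048 genes with a score above 0. This is the score of the rule itself and is given as a description. The other 5, Rpt3R, Rpt4R, Rpt6R, Rpn12R and Rpn13R, carry names of duplicate copies. Medians of the variance-stabilized values of the 23 genes were 10.91 in larvae, 12.12 at P1, 11.99 at P2, 11.67 at P3 and 10.99 at P4. Of 25 genes of the proteasome core none was a member and 8 had a score above 0. The medians of the 25 were 11.03 in larvae, 11.43 at P1, 11.31 at P2, 11.21 at P3 and 10.67 at P4. This list also holds names of duplicate copies, marked by T or R as in Prosalpha3T and Prosbeta5R1, and all of these scored below 0. Core genes without such a mark also scored below 0. They were Prosalpha1 (-1.60), Prosalpha6 (-0.27), Prosbeta1 (-0.08), Prosbeta4 (-0.28), Prosbeta5 (-0.19) and Prosbeta7 (-0.21). Marked copies make up a larger part of the core list than of the Rpn and Rpt list, so nothing is read from the difference between both lists.

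TER94, the ATPase that extracts ubiquitinated proteins from membranes and complexes, had 10989, 9624 and 10417 normalised counts at P1, 9438, 10436 and 9756 at P2, 8210, 8648 and 8092 at P3 and 4910, 4806 and 5558 at P4. Hsc70-3, the chaperone BiP of the endoplasmic reticulum, had 16706, 12417 and 13931 at P1, 17813, 25015 and 18934 at P2, 19900, 22557 and 15964 at P3 and 3905, 4863 and 6332 at P4. Its P1 and P3 libraries overlapped and its P4 libraries lay below all of them. The gene of the regulatory light chain of non-muscle myosin, sqh, had means of 12.01 ± 0.09 at P2 and 12.04 ± 0.14 at P3, and cib, an actin-binding protein gene, had 13.84 ± 0.05 and 13.32 ± 0.24. The mitochondrial gene Letm1 had 11.46 ± 0.05 and 11.55 ± 0.10, the chloride channel gene ClC-c 10.24 ± 0.09 and 10.02 ± 0.15, and the glycosyltransferase gene Ugt302K1 7.92 ± 0.13 and 7.59 ± 0.30 (variance-stabilized log2, SD, n = 3).

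Several genes high in the list have no name beyond their number. CG32762 had 7144, 8106 and 6886 normalised counts at P1, 23162, 25150 and 24767 at P2, 16625, 22506 and 20911 at P3 and 2728, 1844 and 3048 at P4. It was at 3.85, 3.13 and 6.2 at P5 and at 0 in all 3 instars. CG42717 was also at 0 in all 3 instars, and had 831, 891 and 951 at P1, 4342, 3575 and 3872 at P2, 3272, 4190 and 4543 at P3, 1550, 777 and 975 at P4 and 7.69, 7.31 and 6.2 at P5. Both genes were thus on from P1 to P4 and close to 0 outside that interval, with P4 intermediate.

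CG34206 had 4068, 4484 and 4997 normalised counts at P1, 4533, 4411 and 4441 at P2 and 1926, 2558 and 3406 at P3 and persisted at 79.2, 136 and 67.3 in mid pupae. CG45081 had 3692, 5002 and 4258 at P1, 12509, 9692 and 12448 at P2 and 2153, 2830 and 3956 at P3, a maximum at P2 without overlap. CG5697 had 1730, 2521 and 1773 at P1, 6254, 5502 and 5953 at P2 and 4978, 5669 and 6168 at P3, where P2 and P3 overlapped and P1 lay below. CG13215 had 615, 641 and 615 at P1, 451, 291 and 472 at P2 and 369, 296 and 251 at P3, which did not pass between P2 and P3. CG3502 had 152, 108 and 160 at P1, 459, 586 and 410 at P2 and 425, 451 and 485 at P3. It was also present in embryos with 51.8, 74.9 and 63.4.

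The larval mean hid large differences between the instars. The 3 instars of a gene spanned a median of 1.13 on the log2 scale in the 100 genes and 0.864 in all genes that vary. In 24 members they spanned more than 2, which was not counted over all genes. In the 1st, 2nd and 3rd instar, 34, 22 and 43 members were more than 1 from the mean of the other instars. Over all genes that vary these shares were 24.6%, 8.08% and 32.5%, so that such differences are not particular to the members. In 8 genes, CG42460, Nepl6, CG18179, CG44625, CG42500, Rpn3, CG8738 and Cpr49Ac, the 3rd instar alone was above the smaller of the P2 and P3 means. These 8, with Rpt5 and Rpn5, were the 10 genes whose P2 and P3 libraries overlapped other stages. CG42500 (76 codons) was the extreme case. It had 7.74, 47.9 and 144050 normalised counts in the 1st, 2nd and 3rd instar, against 17628, 10926 and 15599 at P2 and 7599, 10516 and 18887 at P3. Its highest value of all 30 libraries was therefore the 3rd instar, and it is no pulse at P2 and P3. Its P3 libraries spread widely, and P4 held 10029, 5073 and 3450. Each instar is 1 library, so that these values have no replicate check.

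The 3rd instar was the highest of the 3 instars in 44 genes, the 2nd in 33 and the 1st in 23. It was more than 1 log2 unit above the 1st instar in 18 of the 39 genes that peaked at P1, in 9 of the 35 that peaked at P2 and in 6 of the 26 that peaked at P3. The median of the difference between the 3rd and the 1st instar was 0.94, -0.19 and 0.38 in these 3 groups. These counts and medians were not made over all genes and are given as descriptions. When the 3 instars were entered in the score as separate stages 82 of the 100 genes kept their place, and without the 2nd instar, whose library the study's methods describe as of low quality, 99 did.

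**Figure D5:**
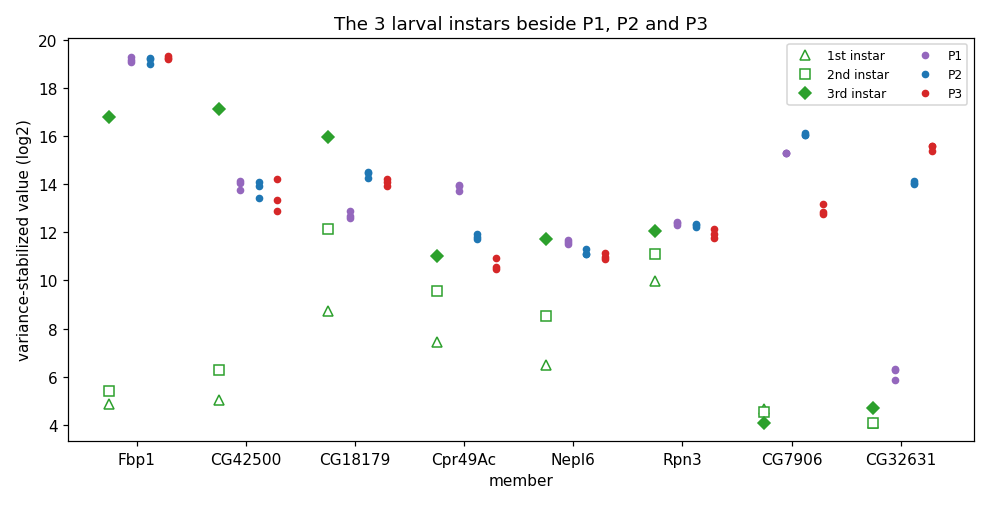
Variance-stabilized values (log2) of 8 members in the single libraries of the 1st, 2nd and 3rd instar (green) and in the 3 libraries each of P1, P2 and P3 (violet, blue, red). In CG42500 and CG18179 the filled green symbol of the 3rd instar, at 17.1 and 16.0, is above all P1, P2 and P3 libraries, whereas CG7906 and CG32631 lie below 5 in every instar.

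No library of P2 or P3 was shifted far from the other 2 of its stage. The median difference over the 100 genes lay between -0.06 and 0.08 at P2 and between -0.14 and 0.10 at P3. This median shows a common shift and not the spread of single genes. More than 1 log2 unit from the mean of the other 2 were 2 genes in P3 replicate 3 and 0 in each other library of P2 and P3. Adult replicate 2 stood apart: 16 of the 100 genes were more than 1 log2 unit above the mean of the other adult libraries there, against 3.20% of all genes. In this library CG7906, CG34244 and CG7924 had 116, 165 and 172 normalised counts and in the other 2 adult libraries between 3.54 and 28.4. Adults set the score only in CG7906 of these 3, since P5 was the closest stage in CG34244 and P4 in CG7924. The part of this library in the choice of members was tested only by leaving out the replicate with that number in every stage, after which 90 of the 100 kept their place.

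Of 20 salivary gland markers 6 were higher at P3 than at P2, and the markers of the gut and of blood cells are given above. The summed level of the salivary gland markers was 38640 to 54190 normalised counts at P2, 98940 to 145700 at P3 and 135600 to 208200 at P4. No salivary gland marker was a member, and their part in the P3 minus P2 differences was not tested. Of 7 muscle, 7 neuron, 3 tendon and epidermis, 2 trachea and 9 testis markers none passed between P2 and P3 in limma, and at an unadjusted p under 0.05 there were 2, both of muscle.

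The members differed little from other genes in structure. All 100 were annotated as protein-coding, with a median coding length of 366 codons against 393.5 over all listed protein-coding genes. Coding lengths of at most 100 codons were found in 12 of the 100 and in 5.88% of all, and 4 of these 12 are the tal reading frames. A single exon was annotated in 14% of members and 17.2% of all genes, and 54 of the 100 carry only a CG number as do 44.0% of all. They were spread over the large chromosome arms, with 18 on 2L, 21 on 2R, 23 on 3L, 27 on 3R and 11 on X. The X held 15.8% of all listed genes.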

How the data were processed

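Whole animals of *D. melanogaster* were sequenced at 10 stages with 3 libraries each. After read filtering (fastp) and pseudoalignment (Kallisto, BDGP6.46 transcriptome), the authors added up the transcripts of each gene and deposited variance-stabilized log2 values (DESeq2), with replicates not pooled. The transformation was inverted to normalised counts, taking the smallest step as 1 count, and 100% of the recovered counts below 50 were whole within 0.02 in every library. Depth was 7350353 to 13434700 counts per library. Differences between low values are compressed on the deposited scale.

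Stages were compared by limma 3.58.1 in R 4.3.3, with 1 model of the 10 stages, an intensity trend and Benjamini-Hochberg adjustment over all 14048 genes that vary, two-sided, at 0.05. Contrasts that the rule used were not tested. The members and the lists were chosen with earlier results of these data known.

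Named genes were the 20 highest scores, 3 on each side of the threshold, members of the lists or of groups of 3 or more neighbours (within 50 kb) or with a shared symbol stem, the 5 extremes of P3 minus P2 and of P1, and members whose symbol names a function. Others were named for large instar values after these were seen. Gene positions came from BDGP6.54, which differs from the annotation the authors used. Names matched for 14117 of 14127 identifiers. The *D. virilis* libraries, promoters and proteins were not analysed here.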

Additional observations from a re-analysis of the deposited data

How the results depend on the processing

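The number of the 100 genes called between P2 and P3 was 23. It moved to 36 with each instar as a group of its own, to 41 with the 6 libraries of P2 and P3 alone and to 9 with log2(normalised count + 1), and stood between 22 and 26 under the other settings that keep all replicates. Leaving out each replicate in turn gave 13 to 17 calls. The 9 calls, and the 13 calls without replicate 1, were all among the 23. Fewer libraries enter each of the fits that leave out a replicate, and the cause of the other shifts was not tested. The 96 calls between P1 and larvae became 82 to 99 under the alternatives and 86 to 94 without a replicate, and against the 3rd instar alone CG15706 turned to -0.20. Of the alternative values of single named genes, 169 kept direction and call, 16 lost the call and 1 reversed, which is the value of CG15706 given above; that call also was lost without replicates 1 and 2 (0.17 and 0.68) and with the libraries of P1 and larvae alone (0.58).

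Under the rule itself, 76 to 99 of the 100 genes stayed among the highest 100 scores with another scale, normalization, average or treatment of the instars, and 84 to 90 without a replicate. With P1 added to the other stages 38 stayed. In all, 20 genes stayed under each of the 10 settings, and 10 of the 20 highest scores did. With the replicate number as a block (replicate block) limma gave 23 and 96 calls. Whether the numbers pair the libraries was not settled. Deviations of same-numbered libraries correlated at 0.17, 0.24 and 0.03 between P2 and P3, and those of different numbers at -0.225 to 0.111. Between larvae and P1 the same-numbered ones correlated at 0.24, -0.09 and 0.16. The larval number is the instar, so that these values cannot show a pairing. Counts of the low genes limit what could be told of their differences. The planned comparison with *D. virilis* counterparts and the planned search for sequence features were not run.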
